A study of Mus musculus with 8 samples.

Results

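The miR-30 family was examined in primary murine articular chondrocytes, the cells that make and maintain the matrix of joint cartilage. Of 1966 mature miRNA names in the count table, 9 were taken by name: mmu-miR-30a-5p, mmu-miR-30a-3p, mmu-miR-30b-5p, mmu-miR-30b-3p, mmu-miR-30c-5p, mmu-miR-30d-5p, mmu-miR-30d-3p, mmu-miR-30e-5p and mmu-miR-30e-3p. The cells were isolated from the femoral head cartilage of wild-type mice aged 3 weeks and cultured in plates. For 24 h they received vehicle (4 libraries) or 1 ng/ml of interleukin-1β (IL-1β), an inflammatory cytokine whose receptor signals to NF-κB (4 libraries). No strain or sex was given, and nothing said whether the 4 libraries of a group came from separate animals or cultures, so p-values measure only the spread between these libraries.

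A miRNA is cut from a hairpin precursor as a duplex of a 5p and a 3p arm. The retained arm guides the Argonaute protein to messenger RNAs, mostly by pairing through its seed, the bases 2 to 8 counted from the 5′ end. The miR-30 family is widely expressed, its 5p arms share a seed, and known targets of these arms include Runx2 and Smad1 in bone-forming cells and Becn1 in autophagy.

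Sequences of 5 of the 9 members were taken from RefSeq (GRCm38.p6), and miR-30b and miR-30d are given by name only. The 5p arms are shown first because they share a seed, and the 3p arms follow because the results turn on the ratio of the arms. The last 2 are the 3p arms of the miR-30c hairpins, which were not members. Sequences run 5′ to 3′ and capitals mark the seed.
miR-30a-5p: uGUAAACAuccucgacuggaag
miR-30e-5p: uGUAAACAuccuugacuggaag
miR-30c-5p: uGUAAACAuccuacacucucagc
miR-30a-3p: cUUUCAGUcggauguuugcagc
miR-30e-3p: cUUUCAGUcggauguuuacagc
miR-30c-1-3p: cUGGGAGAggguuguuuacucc
miR-30c-2-3p: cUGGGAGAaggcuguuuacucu

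The sequences fell into 3 seed groups. The 5p arms of miR-30a, miR-30c and miR-30e had the seed GUAAACA and were identical over their first 12 bases. The 5p arms of miR-30a and miR-30e differed at 1 of 22 bases (C13U, from miR-30a to miR-30e, counted from the 5′ end), outside the seed. Their 3p arms also differed at 1 of 22 bases (G18A) and shared the seed UUUCAGU. Of 1679 mature miRNAs in the RefSeq table, the only other name with the 5p seed was miR-384-5p, which had 0 counts in all 8 libraries.

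The arms lie on the hairpin as follows, with capitals marking the arms. The hairpins of miR-30a and miR-30e are shown because they gave the highest counts of 3p arms.
Mir30a: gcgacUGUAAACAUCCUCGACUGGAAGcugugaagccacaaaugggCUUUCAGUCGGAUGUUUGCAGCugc
Mir30e: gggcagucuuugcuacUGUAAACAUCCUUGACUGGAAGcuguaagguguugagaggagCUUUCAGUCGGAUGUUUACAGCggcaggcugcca

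In GRCm38 the 6 miR-30 hairpins formed 3 pairs on 3 chromosomes. Mir30a (chr1:23272269-23272339, plus strand) overlapped no other gene of GENCODE M21, and Mir30c-2 (chr1:23291701-23291784, plus strand), 19361 nt away, lay in an exon of the long non-coding RNA gene Gm27028. Mir30e (chr4:120772606-120772697) and Mir30c-1 (chr4:120769534-120769622), with 2983 nt between them, both lay on the minus strand in introns of Nfyc, which encodes a subunit of the transcription factor NF-Y. Mir30b (chr15:68337415-68337510) and Mir30d (chr15:68341208-68341289) lay on the minus strand with 3697 nt between them, in exons of Gm26621 and of Gm20732 and Gm37296. Because miR-30c-5p has the same sequence in Mir30c-1 and Mir30c-2, its counts could not be assigned to a hairpin, and its listed length of 46 nt was that of both loci together. miR-30f, annotated on the strand opposite Mir30e, overlaps miR-30e-3p by 19 nt. It had 0 counts, against 441 for miR-30e-3p, and whether counting used strand was not stated.

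The libraries held 616475 to 1568367 counts, so that a single read stood for 0.638 to 1.62 CPM, that is, counts scaled to a library total of 1000000, and the 3 counts that an observed 0 allows stood for 1.91 to 4.87 CPM. Levels are normalized CPM, for which TMM, a trimmed mean of log ratios, was used to scale the library totals, and intervals and floors cover counting error only. miR-140-3p, the hallmark miRNA of cartilage, was at 129168 to 163549 normalized CPM across the libraries, among the highest levels of all miRNAs. Marker miRNAs of muscle (4 names) and liver (1 name) had 0 counts, and those of endothelium (2 names) and epithelium (7 names) had 8 and 24 counts in all. Haematopoietic markers (5 names, 3 of them at 0) summed to 44.1 to 63.8 CPM with vehicle and 26.0 to 47.1 CPM with IL-1β. Almost all of this sum was miR-150-5p, at 43.5 to 60.0 normalized CPM with vehicle and 25.6 to 45.5 with IL-1β. The sum therefore reflects a single name rather than the list. In these bulk samples fewer cells of a type and less RNA per cell cannot be told apart. IL-1β replicate 4 stood apart from its group, with deviations from the other replicates of an SD of 0.40 on the log2 scale against 0.15 to 0.23 for the other 7 libraries, and results that rest on it are also given without it.

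The 9 members together took 1.02% to 1.26% of the counts of a library, and most of these counts were miR-30d-5p. The 5p arms made up 98.9% to 99.1% of the family's counts in every library, and miR-30d-5p alone made up 85.2% to 87.2%. The summed level of the 5p arms was 11654 ± 520.4 (SD, n = 4) normalized CPM in vehicle libraries and 11332 ± 351 (SD, n = 4) in IL-1β libraries. The summed level of the 3p arms was 111 ± 7.07 and 109 ± 9.31 (SD, n = 4). Both sums overlapped between the groups. In every library most of the family's counts were thus those of miR-30d-5p, with or without the cytokine.

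mmu-miR-30d-5p was the most abundant member and ranked 20 among all names by mean level. Its level was 10079.5, 9486, 10712 and 10479 normalized CPM in vehicle replicates 1 to 4. The 4 replicates with IL-1β, in the same order, were at 9961, 9959, 10154 and 9539. The 8 libraries lay within a narrow band, and the groups overlapped. The log2 fold change was -0.04 (SE 0.0781, edgeR adjusted p = 0.888), with a 95% interval of -0.20 to 0.12, which corresponds to 0.869-fold to 1.09-fold. This log2 fold change was -0.07 without vehicle replicate 2 and -0.02 without vehicle replicate 3.

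mmu-miR-30c-5p came next, at 858, 953, 926 and 894 normalized CPM in vehicle replicates 1 to 4. Treated replicates 1 to 4 were at 838, 966, 865 and 727. Its lowest value was that of IL-1β replicate 4 and its highest that of IL-1β replicate 2, so the vehicle values lay within the range of the IL-1β values. The log2 fold change was -0.10 (SE 0.0908, edgeR adjusted p = 0.757, 95% interval -0.28 to 0.09), and it was -0.03 without IL-1β replicate 4 and -0.17 without IL-1β replicate 2.

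mmu-miR-30a-5p, known to act on the autophagy gene Becn1, was at 370.1, 378, 339 and 388 normalized CPM in vehicle replicates 1 to 4. After IL-1β the replicates were at 398, 392, 357 and 371. The groups overlapped, and the log2 fold change was 0.04 (SE 0.0915, edgeR adjusted p = 0.904, 95% interval -0.14 to 0.23). For these 3 most abundant members the whole 95% interval lay within 0.3 of zero on the log2 scale, the size of change required for a call.

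miR-30e-5p, from the intron of Nfyc, had the lowest unadjusted p of the family (0.0662). Vehicle replicates 1 to 4 held 88.0, 105, 104 and 81.0 normalized CPM. Replicates 1 to 4 with IL-1β held 117, 134, 89.1 and 118. Of the IL-1β libraries, 3 lay above every vehicle library, and IL-1β replicate 3 lay within the vehicle range. The group means were 94.5 ± 12.0 (SD, n = 4) and 114 ± 18.6 (SD, n = 4), a ratio of means of 1.21. The log2 fold change was 0.27 (SE 0.139, 95% interval -0.02 to 0.55), and the edgeR adjusted p was 0.518, with a range of 0.240 to 0.733 over 15 alternatives. Its log2 fold change was 0.17 without IL-1β replicate 2, 0.36 without IL-1β replicate 3 and 0.43 with 1 surrogate variable in the fit.

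miR-30b-5p, the neighbor of miR-30d on chromosome 15, had the lowest mean level of the 5p arms, but it was below miR-30e-5p in only 5 of 8 libraries. It stood at 61.5, 100.1, 111 and 104 normalized CPM in vehicle replicates 1 to 4. The IL-1β replicates 1 to 4 stood at 89.6, 90.2, 102 and 62.7. Its low libraries were vehicle replicate 1 (58 counts, exact Poisson 95% interval 46.7 to 79.5 normalized CPM) and IL-1β replicate 4 (50 counts, 46.5 to 82.6), which belong to different groups. The log2 fold change was -0.14 (SE 0.170, edgeR adjusted p = 0.794), and it was -0.29 without vehicle replicate 1 and -0.03 without IL-1β replicate 4. In the same libraries miR-30d-5p was at 10079.5 and 9539 normalized CPM, and it outnumbered miR-30b-5p 164 times in vehicle replicate 1 and 152 times in IL-1β replicate 4, against 94.8 to 111 times in the other 6 libraries.

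The 3p arms were next examined, beginning with those of miR-30e and miR-30a, which share a seed. miR-30e-3p was at 55.1, 60.1, 55.6 and 57.6 normalized CPM in vehicle replicates 1 to 4. Corresponding values with IL-1β were 52.8, 46.4, 57.0 and 57.7. The vehicle values were close together and the IL-1β values overlapped them. The log2 fold change was -0.11, with an SE of 0.153 and an edgeR adjusted p of 0.825, and it was -0.03 without IL-1β replicate 2. miR-30a-3p was at 41.4, 46.05, 44.4 and 49.8 with vehicle. With IL-1β it was at 38.4, 44.7, 49.7 and 45.1. Its log2 fold change was -0.02 (SE 0.166, edgeR adjusted p = 0.992), with overlapping groups.

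The 3p arms of miR-30d and miR-30b were close to the limit of detection. miR-30d-3p had 3, 5, 11 and 5 counts in vehicle replicates 1 to 4. With IL-1β it had 4, 6, 3 and 12 counts. The highest level was that of IL-1β replicate 4, at 15.0 normalized CPM, and the other 7 libraries were at 3.18 to 7.79. The log2 fold change was 0.56 (SE 0.475, edgeR adjusted p = 0.753, 95% interval -0.42 to 1.54) and was 0.02 without IL-1β replicate 4. miR-30b-3p had 3, 5, 5 and 3 counts with vehicle and 3, 5, 1 and 2 with IL-1β. Its 95% interval, -1.27 to 1.17 (log2 fold change -0.05, edgeR adjusted p = 0.992), spanned 0.415-fold to 2.24-fold.

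**Figure D1:**
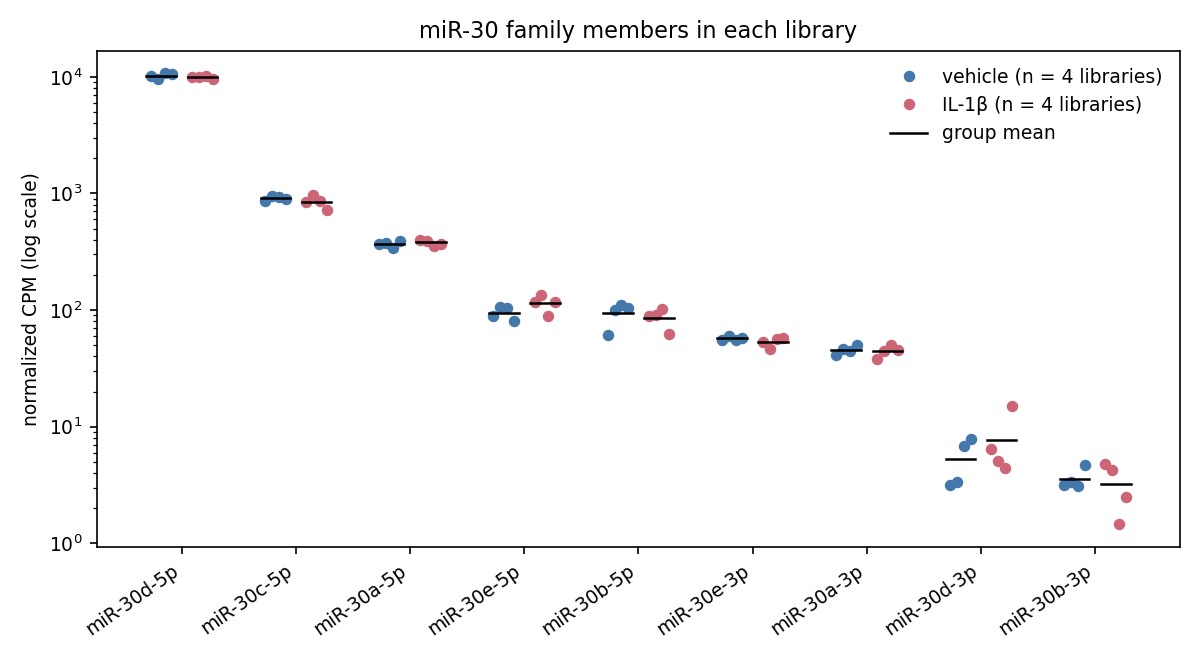
Normalized CPM (log axis) of the 9 miR-30 members in each of 8 libraries. Points are libraries (blue, vehicle; red, IL-1β, n = 4 each), in replicate order from left to right within a group, and black lines are group means. miR-30d-5p lies between 9486 and 10712 in every library, and the points of both groups overlap for all 9 members.

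Of the 9 members, all 9 passed the filter on low counts in both groups (over 1 CPM in all 4 libraries of each) and 0 were called, meaning an adjusted p under 0.05 and an absolute log2 fold change over 0.3. By the same edgeR rule 11 of 564 tested miRNAs (1.95%) were called, with 1.42% of the 564 higher and 0.532% lower with IL-1β. DESeq2 called 0 of the 7 members to which it gave an adjusted p and gave none to miR-30b-3p and miR-30d-3p. Over all miRNAs it called 12 of the 291 with an adjusted p (4.12%). In the edgeR test 0 members had an unadjusted p under 0.05, against 11.2% of all tested miRNAs. The groups overlapped for all 9 members, and they did not overlap for 7.62% of tested miRNAs. With shares this small, 0 of 9 members does not set the family apart from the other miRNAs. The median log2 fold change was -0.04 over the members and 0.01 over all tested miRNAs, with 3 members higher and 6 lower. Only the 5p arms of miR-30a, miR-30c and miR-30d had a 95% interval within 0.3 of zero. For the other 6 members a change past 0.3 was inside the interval.

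**Figure D2:**
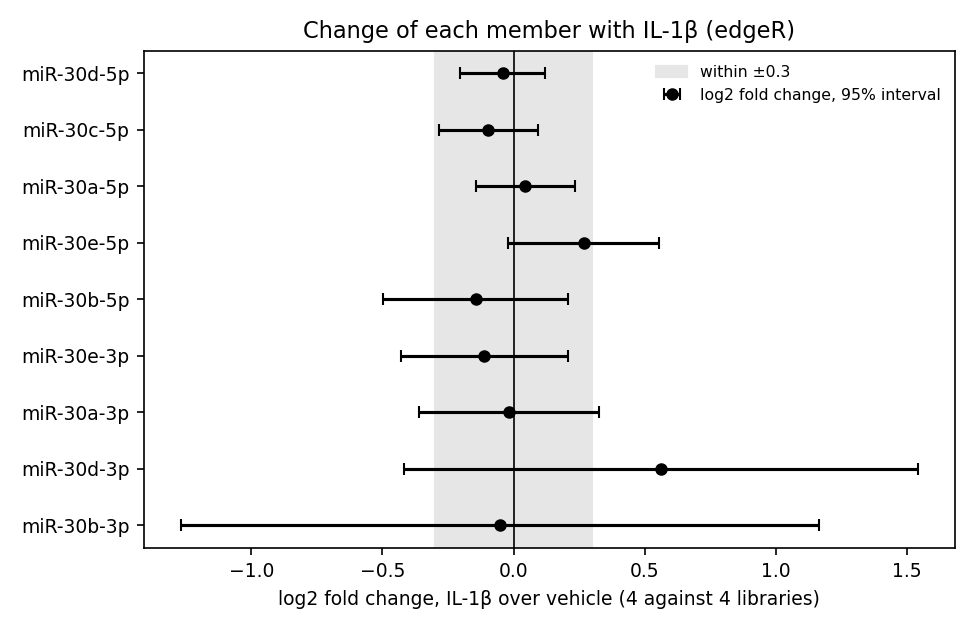
Log2 fold change of each member, IL-1β over vehicle, with its 95% interval from the edgeR fit (4 against 4 libraries). The grey band marks changes within 0.3, and the intervals of the 5p arms of miR-30d, miR-30c and miR-30a lie inside it, while those of the 3p arms of miR-30d and miR-30b are the widest.

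**Figure D3:**
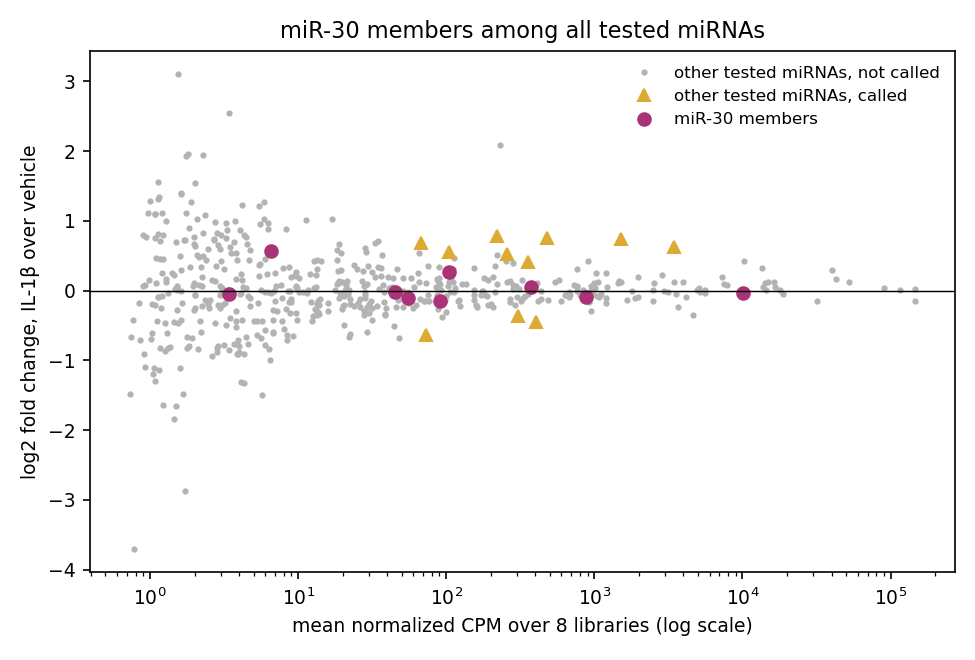
Log2 fold change of every tested miRNA (IL-1β over vehicle) against its mean normalized CPM over 8 libraries (log axis). Purple points are the 9 miR-30 members, triangles the 11 called miRNAs and grey points the other tested miRNAs. 8 members lie within 0.3 of zero, and the remaining member, miR-30d-3p, lies at 0.56.

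The members were then ordered by level. As each read stands for a whole mature miRNA, counts were not divided by length, and dividing by the length per locus (22 or 23 nt) left all 9 ranks as they were. By mean over the 8 libraries the order was miR-30d-5p, miR-30c-5p, miR-30a-5p, miR-30e-5p, miR-30b-5p, miR-30e-3p, miR-30a-3p, miR-30d-3p and miR-30b-3p. The step from miR-30d-5p to miR-30c-5p was 11.4-fold, from miR-30c-5p to miR-30a-5p 2.35-fold and from miR-30a-5p to miR-30e-5p 3.58-fold, and each of these held in all 8 libraries without overlap. miR-30e-5p exceeded miR-30b-5p in 5 of 8 libraries, so this pair did not differ beyond its spread. miR-30d-3p exceeded miR-30b-3p in 6 of 8. It tied with miR-30b-3p in vehicle replicates 1 (3 counts each) and 2 (5 counts each). Their ranges overlapped, both had few counts, and their order was not tested. miR-30e-3p exceeded miR-30a-3p in all 8 libraries, although their ranges overlapped. Ligation and amplification favor some sequences over others, and levels of different members are therefore not molar amounts.

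The ratio of the arms was compared because it needs no scaling between libraries. It differed widely between hairpins, also between those of a cluster. Over all libraries miR-30d gave 80197 counts of its 5p arm and 49 of its 3p arm, a ratio of 1637, which ranked 7 by excess of the 5p arm among 280 hairpins with both arms detected. miR-30b gave 736 and 27 counts (ratio 27.3, rank 40), and miR-30a gave 2961 and 358 counts (ratio 8.27, rank 63). miR-30e was the most even, with 846 and 441 counts (ratio 1.92, rank 94). The 5p arms of miR-30a and miR-30e differ by the single base shown above, as do their 3p arms, yet the arm ratio was 7.18 to 10.4 for miR-30a and 1.41 to 2.89 for miR-30e across the libraries.

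For miR-30c the 3p arms are named by hairpin and are not members. miR-30c-1-3p was at 25.7 ± 2.01 and 28.3 ± 7.41 normalized CPM, and miR-30c-2-3p at 17.5 ± 4.14 and 19.0 ± 2.02, in the vehicle and the IL-1β group (SD, n = 4). Neither was called, with log2 fold changes of 0.13 and 0.10 and an edgeR adjusted p of 0.871 and 0.935. Without 1 library the change of miR-30c-1-3p ranged from 0.01 (without IL-1β replicate 3) to 0.22 (without IL-1β replicate 1). miR-30c-5p outnumbered both together 14.5 to 24.5 times across the libraries, with the lowest values in IL-1β replicates 3 and 4.

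The arm ratio of miR-30e had higher values in most IL-1β libraries, but the groups overlapped. The 5p arm outnumbered the 3p arm 1.596, 1.76, 1.87 and 1.41 times in vehicle replicates 1 to 4. In replicates 1 to 4 of the IL-1β group it did so 2.21, 2.89, 1.56 and 2.04 times. The IL-1β libraries other than replicate 3 lay above every vehicle library. The 3p arm made up 36.9% of pooled counts with vehicle (Wilson 95% interval 33.4% to 40.4%) and 30.9% with IL-1β (27.2% to 34.8%). These intervals overlapped, which does not test the difference, and they leave out the spread between libraries. The log2 arm ratio was 0.71 ± 0.18 (SD, n = 4) in the vehicle and 1.08 ± 0.36 (SD, n = 4) in the IL-1β libraries, a difference of 0.36 (limma over 57 hairpins, SE 0.242, adjusted p = 0.731, 95% interval -0.13 to 0.86). Over 12 alternatives the difference lay between 0.22 (without IL-1β replicate 2) and 0.51 (without IL-1β replicate 3), and the limma adjusted p between 0.471 and 0.892.

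The other arm ratios differed less or rested on few counts. For miR-30a the ratio was 8.95, 8.22, 7.63 and 7.78 with vehicle and 10.4, 8.77, 7.18 and 8.22 with IL-1β. The log2 difference was 0.07 (limma SE 0.202, adjusted p = 0.906, 95% interval -0.35 to 0.49). For miR-30d the ratio ranged from 1345 to 3169 with vehicle and from 634 to 2316 with IL-1β, the lowest value being that of IL-1β replicate 4 (log2 difference -0.52, and -0.15 without that library). For miR-30b the ratio ranged from 19.3 to 35.6 with vehicle and from 18.7 to 70.0 with IL-1β, where the highest value rested on 1 count of the 3p arm (log2 difference 0.02, and -0.32 without that library, IL-1β replicate 3). The 3p arms of miR-30d and miR-30b had a mean of under 10 counts and were left out of the limma fit, which called 2 of 57 hairpins (3.51%) and 0 of the 2 miR-30 hairpins in it. Both of these had an unadjusted limma p over 0.05, at 0.144 for miR-30e and 0.734 for miR-30a. In exact permutation tests over the libraries (two-sided, 70 arrangements, smallest possible p = 0.0286) p was 0.143 for miR-30e, 0.371 for miR-30d, 0.686 for miR-30a and 0.943 for miR-30b. Adjusted over these 4 tests, the exact permutation p was 0.571 to 0.943.

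**Figure D4:**
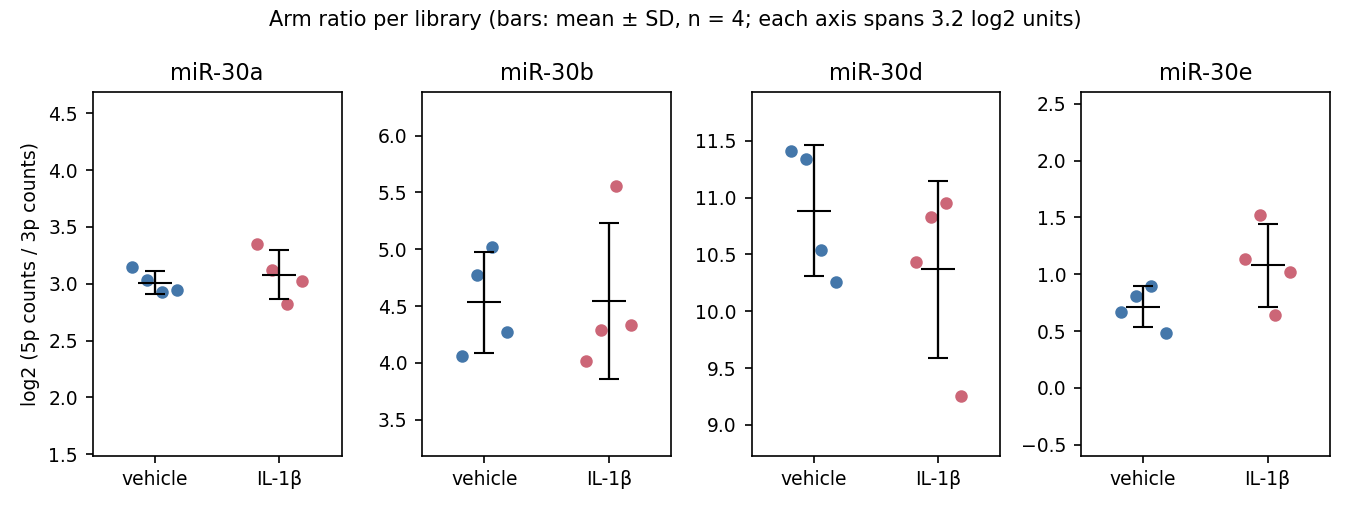
Log2 ratio of 5p to 3p counts of the miR-30a, miR-30b, miR-30d and miR-30e hairpins in each library (blue, vehicle; red, IL-1β), with mean ± SD (n = 4). Every panel spans the same number of log2 units but is centered on its own hairpin. The groups overlap in all 4 panels, and 3 of 4 IL-1β points of miR-30e lie above the vehicle points.

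Profiles most like those of the leading members were sought among 189 other miRNAs that averaged 50 counts or more, by the root mean square difference of log2 levels over the 8 libraries after centering each miRNA on its mean. miR-30d-5p was closest to miR-668-3p (0.0612), miR-674-3p (0.0644) and miR-744-5p (0.0669), against a median difference of 0.164. miR-30e-3p, the most abundant 3p arm, was closest to miR-652-3p (0.0660), miR-181a-1-3p (0.0753) and miR-103-3p (0.0803), against a median of 0.181. These were the smallest of 189 differences, and miR-30e-3p had only 33 to 90 counts per library. Whether any of these profiles are regulated together was not tested.

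For context, miRNAs linked to cartilage and miRNAs known to respond to NF-κB were read from the same edgeR fit. Of 16 cartilage-linked names 15 were tested and 0 were called by edgeR, where 1.95% of all tested miRNAs were called. DESeq2 called 0 of the 14 to which it gave an adjusted p, against 4.12% over all miRNAs. An unadjusted edgeR p under 0.05 was found for 2 of the 15 (11.2% of all tested miRNAs), and the median log2 fold change was -0.02. The most abundant was miR-140-3p, at a log2 fold change of -0.15 and an edgeR adjusted p of 0.546. Although not called in this fit, miR-455-3p was called with a replicate block (-0.37, edgeR adjusted p = 0.0155). It was also called with no filter on low counts and without IL-1β replicate 2. Of 12 NF-κB-responsive names 11 were tested, 2 rose and 0 fell by edgeR, with a median log2 fold change of 0.22, where 1.42% of all tested miRNAs were called higher. DESeq2 called 3 of the 11, where 3.09% of all miRNAs with an adjusted p were called higher. An unadjusted edgeR p under 0.05 was found for 5 of the 11. The rises were those of miR-21a-5p, by 0.75 on the log2 scale (edgeR adjusted p = 3.58e-05), and of miR-222-3p, by 0.62 (edgeR adjusted p = 2.46e-05). miR-146a-5p, a feedback inhibitor of NF-κB signaling and the third name called by DESeq2 (adjusted p = 0.00188), was named after its values were seen. It stood at 79.5, 98.1, 91.8 and 74.8 normalized CPM in vehicle replicates 1 to 4. In IL-1β replicates 1 to 4 it stood at 203, 201, 269 and 821, above every vehicle library. By edgeR its log2 fold change was 2.09 (adjusted p = 0.184) with all libraries, and 1.33 (adjusted p = 1.18e-09) without IL-1β replicate 4. The most abundant name of this list, miR-125b-5p, was not called (0.30, edgeR adjusted p = 0.232), and its log2 fold change was 0.13 without IL-1β replicate 4. The lists were written from general knowledge but with earlier results of these data known, so their counts of calls are not independent of the data. They were not tested as sets.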

How the data were processed

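Small RNA of vehicle- and IL-1β-treated chondrocytes was profiled by miRNA-Seq. The authors trimmed reads with cutadapt, aligned them to mm10 with STAR and deposited whole-number counts per mature miRNA from featureCounts, with a listed length (other column) for each name. They also describe batch correction with RUVseq, and whether it had been applied to the deposited counts was not tested. The study's methods and the submitters' processing notes name different versions of STAR, so none is given. How reads mapping to several loci were counted, and whether strand was used, is not given in the sources used here, and reads of members that differ by few bases may be misassigned.

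The groups were compared in R 4.3.3 by edgeR 4.0.16, quasi-likelihood test (robust, two-sided, TMM, group as the only term) on all miRNAs over 1 CPM in at least 4 of 8 libraries, with Benjamini-Hochberg adjustment over all 564 tested. SE was the log2 fold change divided by the square root of F. Log2 arm ratios (0.5 added to each count) were fitted with limma 3.58.1 over hairpins with a mean of at least 10 counts per arm. Within groups, chi-square per degree of freedom between libraries was 4.12 to 68.1, so no library was a duplicate. Alternatives were other scalings, filters and pseudocounts, DESeq2 1.42.0, a replicate block, a surrogate variable (sva 3.50.0) and leaving out each library. Tests were checked on simulated data. Named miRNAs were the members, the other miR-30 names, the 3 nearest profiles of the leading 5p and 3p member, and called and most abundant names of the lists. The members and lists were chosen with earlier results of these data known.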

Additional observations from a re-analysis of the deposited data

Results flagged for a closer look

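Among 30 groups of 4 values examined (levels and arm ratios of the family), 1 had a library far from the other 3, where chance alone flags about 1 in 20. It was miR-30b-3p in vehicle replicate 4, with a level of 4.67 normalized CPM where its group otherwise held 3.12 to 3.34, a gap of 0.863 of the range. That value rested on 3 counts, against 3 to 5 in the others.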

How the results depend on the processing

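Under all 15 alternatives of the edgeR fit 0 members that had an adjusted p were called, and under the 12 of the arm ratios 0 miR-30 hairpins in the fit. Of 176 values of members and arm ratios under these alternatives, 165 kept their direction and 11 reversed. Of the 156 with an adjusted p, 0 passed the threshold. The reversals, other than that of the miR-30b arm ratio with a pseudocount of 1 (-0.0706), came from leaving out a library and concerned values near zero, for which the lowest and highest log2 values without 1 library were -0.00171 and 0.0726 for miR-30a-5p, -0.0659 and 0.0146 for miR-30a-3p, -0.26 and 0.15 for miR-30b-3p, -0.0203 and 0.154 for the arm ratio of miR-30a, and -0.319 and 0.195 for that of miR-30b. Outside the members, miR-30c-2-3p ranged from -0.0304 to 0.217. The cause was not tested. With a minimum mean of 10 counts, miR-30b-3p and miR-30d-3p had no value, and DESeq2 gave them no adjusted p.

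Over all miRNAs the count of calls moved from 11 to 19 with a replicate block and to 7 with 1 surrogate variable, and it ranged from 7 (without vehicle replicate 2 or IL-1β replicate 1) to 19 (without IL-1β replicate 4). Of the cartilage-linked names 1, miR-455-3p, was called with no filter on low counts, with the replicate block and without IL-1β replicate 2, so that the range without 1 library was 0 to 1, and the cause was not tested. Deviations of same-numbered libraries had correlations of 0.170, -0.344, 0.101 and -0.183 across 195 miRNAs. The best-matching IL-1β library had the same number for vehicle replicates 1 and 3 but not for 2 and 4. These values showed no steady pairing by number, but they cannot exclude that same-numbered libraries share an origin. The replicate block changed no call of a member (miR-30e-5p 0.26, edgeR adjusted p = 0.560). Depth limits miR-30b-3p and miR-30d-3p, with 27 and 49 counts in all.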
